A study of Mus musculus with 4 samples.

Results

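The inducible heat shock chaperones examined here are Hspa1a, Hspa1b, Hspa8, Hsp90aa1, Hsp90ab1, Hspb1, Hspb8, Hsph1 and Dnajb1, together with Hsf1, the transcription factor of the heat shock response. These 10 genes were chosen by name. Of the 31891 gene names on the arrays, 9 of the 10 had a probe under their own name, and Hspa1b was reached only through the probe of Hspa1a. The 9 genes had 12 different 60-base probes, and all 9 were well above background on all 4 arrays.

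Gene expression was measured in mouse embryonic fibroblasts (MEFs), connective tissue cells grown from embryos, on 4 one-color Agilent arrays. The 4 conditions were WT (p53+/+) MEFs without doxorubicin, WT MEFs with doxorubicin, p53-/- MEFs without doxorubicin and p53-/- MEFs with doxorubicin. Doxorubicin is an anthracycline that damages DNA by trapping topoisomerase II. The study used the arrays, with and without doxorubicin, to look for target genes of p53 whose products modulate myosin. Each condition had 1 array, all 4 arrays were on 1 slide, and neither the dose and duration for the arrays nor the number of embryos behind each line was given in the sources used here. No comparison below has replicate arrays, no p-value was calculated, and slide position and condition cannot be told apart. Values listed for 4 arrays are given in the order in which the conditions are named here.

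Heat shock proteins are chaperones that bind unfolded or aggregation-prone proteins. Under proteotoxic stress HSF1 forms trimers, moves to DNA and binds heat shock elements, which are arrays of the unit nGAAn in alternating orientation, and switches on the inducible chaperone genes. HSP70 proteins fold clients in cycles of ATP hydrolysis that J domain proteins start and nucleotide exchange factors end. HSP90 proteins act later on kinases, receptors and other clients, and small heat shock proteins hold unfolded proteins without using ATP. In fibroblasts Hspa8 and Hsp90ab1 are known as abundant constitutive members, whereas Hspa1a and Hspa1b are known for low levels without stress.

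Promoter sequences are shown first because the heat shock element is the feature by which these genes are usually grouped. RefSeq windows of the assembly GRCm38.p6, from 250 bases before to 50 bases after the annotated start site, were matched by symbol for 6 of the 10 genes. Hspa8, Hsp90aa1, Hsp90ab1 and Hsf1 had no window in the table. Capitals mark GAANNTTC or TTCNNGAA, a pair of adjacent heat shock units, searched on both strands (each motif is its own reverse complement). The first pair of sequences, from the minus strand of chr17:34972157-34972406 and chr17:34959239-34959488, shows how alike Hspa1a and Hspa1b are.
Hspa1a: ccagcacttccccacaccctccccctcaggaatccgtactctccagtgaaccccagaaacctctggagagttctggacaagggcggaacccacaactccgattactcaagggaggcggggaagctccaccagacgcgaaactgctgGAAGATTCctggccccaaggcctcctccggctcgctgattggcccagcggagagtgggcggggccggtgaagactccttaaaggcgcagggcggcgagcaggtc
Hspa1b: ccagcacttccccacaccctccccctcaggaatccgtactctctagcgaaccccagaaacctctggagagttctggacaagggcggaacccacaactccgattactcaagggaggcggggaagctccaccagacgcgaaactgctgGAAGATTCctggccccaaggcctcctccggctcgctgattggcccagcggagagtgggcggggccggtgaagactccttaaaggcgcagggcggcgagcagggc
The windows of Hspa1a and Hspa1b had the same base at 296 of 300 positions, and 3 of the 4 differences lay before the start site. Each held 1 match, which began 104 bases before the start site, and a CCAAT box (CCAAT or its reverse complement) that began 67 bases before it.

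The last 150 bases before the start site are shown for the other 4 genes, to set the promoters with a match beside those without one. They come from the plus strand of chr5:135887769-135887918 for Hspb1, the minus strand of chr5:149636316-149636465 for Hsph1, the minus strand of chr5:116422865-116423014 for Hspb8 and the plus strand of chr8:83608025-83608174 for Dnajb1.
Hspb1: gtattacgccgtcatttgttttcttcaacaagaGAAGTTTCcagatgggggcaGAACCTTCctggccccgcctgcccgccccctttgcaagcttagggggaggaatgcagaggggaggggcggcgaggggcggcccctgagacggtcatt
Hsph1: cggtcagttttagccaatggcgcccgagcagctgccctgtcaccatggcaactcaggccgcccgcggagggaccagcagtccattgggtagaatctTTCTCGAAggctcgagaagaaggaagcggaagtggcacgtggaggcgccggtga
Hspb8: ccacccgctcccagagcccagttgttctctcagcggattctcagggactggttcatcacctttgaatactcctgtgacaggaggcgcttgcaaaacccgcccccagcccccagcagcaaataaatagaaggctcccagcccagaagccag
Dnajb1: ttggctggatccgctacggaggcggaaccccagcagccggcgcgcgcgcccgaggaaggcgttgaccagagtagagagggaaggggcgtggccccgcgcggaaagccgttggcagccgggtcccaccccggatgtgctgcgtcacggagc
Hspb1 held 2 matches, which began 117 and 97 bases before the start site. Hsph1 held 3, of which 1 began 54 bases before the start site and the others overlapped each other 16 and 21 bases after it, where they made up 3 alternating units. Hspb8 held its single match 3 bases after the start site, and Dnajb1 held none in this window. A 2-unit match was found in 5 of the 6 genes and in 15.1% of all 32851 windows in the table. Hspa1a and Hspa1b, whose windows are nearly alike, are both among these 5, and the share counts single windows, not genes. The 3-unit form was found in 0.603% of all windows, and Hsph1 was the 1 gene of the 6 to hold it. CCAAT occurred in 4 of the 6 genes, Hspa1a and Hspa1b among them, and in 37.4% of all windows, whereas TATAAA occurred in 0 of the 6 and in 13.6%. The consensus decamer of a p53 half-site occurred in 1 of the 6, Hsph1, and in 8.36% of all windows. In Hsph1 it began 159 bases before the start site, ahead of the 150 bases shown. A match is a description of these letters and is not a measured binding site. Hsph1 and Dnajb1 had a second RefSeq window each. That of Hsph1, which overlaps the first, held the same matches, and that of Dnajb1 held no 2-unit match.

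**Figure D1:**
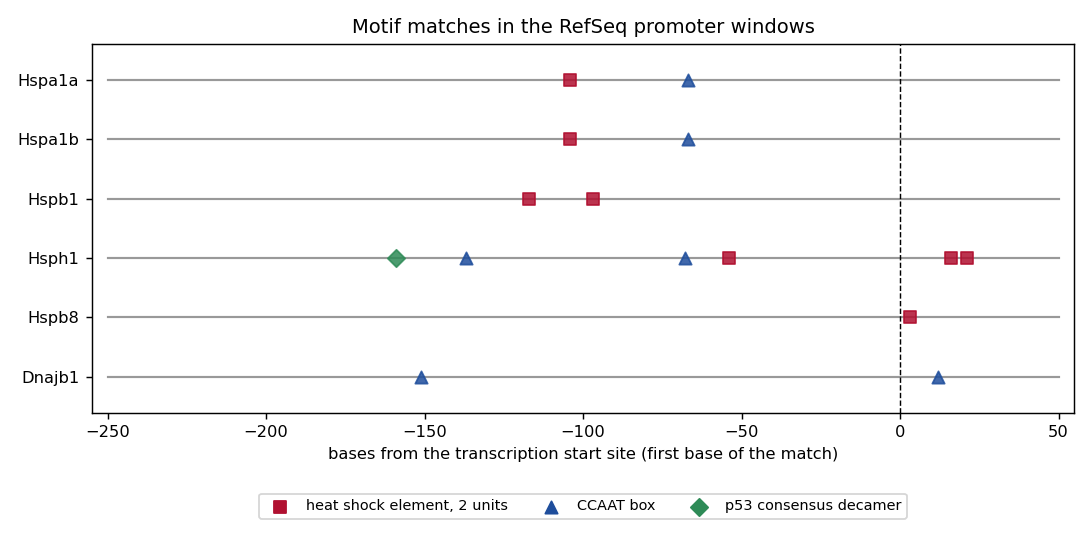
Positions of motif matches in bases from the transcription start site (dashed line) in the RefSeq windows of 6 heat shock genes, 1 line per gene. Squares mark 2-unit heat shock elements, triangles CCAAT boxes and diamonds the consensus decamer of a p53 half-site. Hspa1a and Hspa1b carry their squares and triangles at the same positions (104 and 67 bases before the start site), and the line of Dnajb1 carries no square.

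Values below are the processed intensities of a probe (the signal after background subtraction within the array) and log2 ratios taken after each array was scaled to its own 75th percentile. That percentile was a signal of 2074 and 1819 in WT MEFs (without and with doxorubicin) and of 1881 and 2421 in p53-/- MEFs, so a signal can fall while its scaled value does not. A gene was called higher or lower at a 2-fold difference, which is a log2 ratio of 1. The spread between repeat spots of 1 probe gave an SD of 0.08 for ratios and of 0.12 for differences between 2 ratios, which covers spot noise and not the spread between cultures. In bulk RNA, a change in the number of expressing cells and a change in RNA per cell cannot be told apart.

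Labels were checked with p53 and 2 of its targets. The Trp53 probe had signals of 1228 and 3442 in WT MEFs (untreated and doxorubicin-treated) and 442 and 543 in p53-/- MEFs, so it was lower on both p53-/- arrays; whether it lies in the deleted part of the gene was not given. Mdm2, the ubiquitin ligase that degrades p53, had log2 ratios upon doxorubicin treatment of 1.998 in WT and 0.47 in p53-/- MEFs. Cdkn1a, the inhibitor of cyclin-dependent kinases, had ratios of 2.08 and 2.23, with levels in p53-/- MEFs that were lower on both arrays (signals of 977 and 5912 against 28619 and 105995). All 12 fibroblast markers examined, collagens and vimentin among them, were well above background on all 4 arrays. Their levels were not all stable, with Lum at signals of 18970, 595, 6819 and 1729 and Pdgfrb at 33756, 5450, 30838 and 11939. Dcn fell upon doxorubicin in WT MEFs (92164 to 32749) and rose in p53-/- MEFs (37845 to 59909). Col1a1 stayed nearly level (163163, 170854, 157117 and 170447). What these shifts contribute to the results below was not tested. Of 6 epithelial markers, 4 were well above background on all arrays, Epcam was on 0, and their summed signal relative to the 75th percentile was 7.50 and 7.67 in untreated WT and p53-/- MEFs and 30.3 and 35.3 after doxorubicin. Krt19 had signals of 3705, 36900, 4367 and 42111 and Krt18 of 9825, 16189, 8346 and 40299, whereas Krt8 went from 1654 to 1052 in WT and from 1457 to 2338 in p53-/- MEFs. The part of this difference in the results below was not tested. Of 8 leukocyte markers 5, of 5 endothelial markers 2, of 5 striated muscle markers 2 and of 5 neuronal and glial markers 4 were well above background on all arrays, and Cdh5, Myod1, Ckm and Gfap were among those on 0. The summed signal of the striated muscle markers relative to the 75th percentile was 1.53 and 0.156 in WT and 1.09 and 0.233 in p53-/- MEFs, without and with doxorubicin, with Actc1 at signals of 2255, 107.3, 1522 and 314 and Myh3 at 806, 112, 426 and 186. Its part in the values of Cryab, Hspb2 and Hspb6, which muscle also expresses, was not tested. The other summed signals on this scale were 585 to 915 for fibroblast, 14.7 to 20.0 for leukocyte, 2.54 to 4.49 for endothelial and 1.78 to 2.80 for neuronal and glial markers.

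Upon doxorubicin treatment, 2 of the 9 genes were at least 2-fold higher in WT MEFs (Hspa1a and Hspb8) and 2 in p53-/- MEFs (Hspa1a and Hspb1), and 0 were at least 2-fold lower in either. Among all genes measured, 11.0% of 17572 were at least 2-fold higher and 10.4% lower in WT MEFs, and 9.23% of 17006 were higher and 6.90% lower in p53-/- MEFs. The median log2 ratio of the 9 genes was 0.18 in WT and 0.35 in p53-/- MEFs, against 0.01 and 0.00 over all genes. Scaling to the array median instead of the 75th percentile lowered every ratio upon doxorubicin by 0.28 in WT and 0.30 in p53-/- MEFs. With that scaling 7.52% of all genes were higher and 15.9% lower in WT MEFs, 5.63% were higher and 12.4% lower in p53-/- MEFs, and of the heat shock genes Hspa1a in WT MEFs was the 1 gene still at least 2-fold higher.

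**Figure D2:**
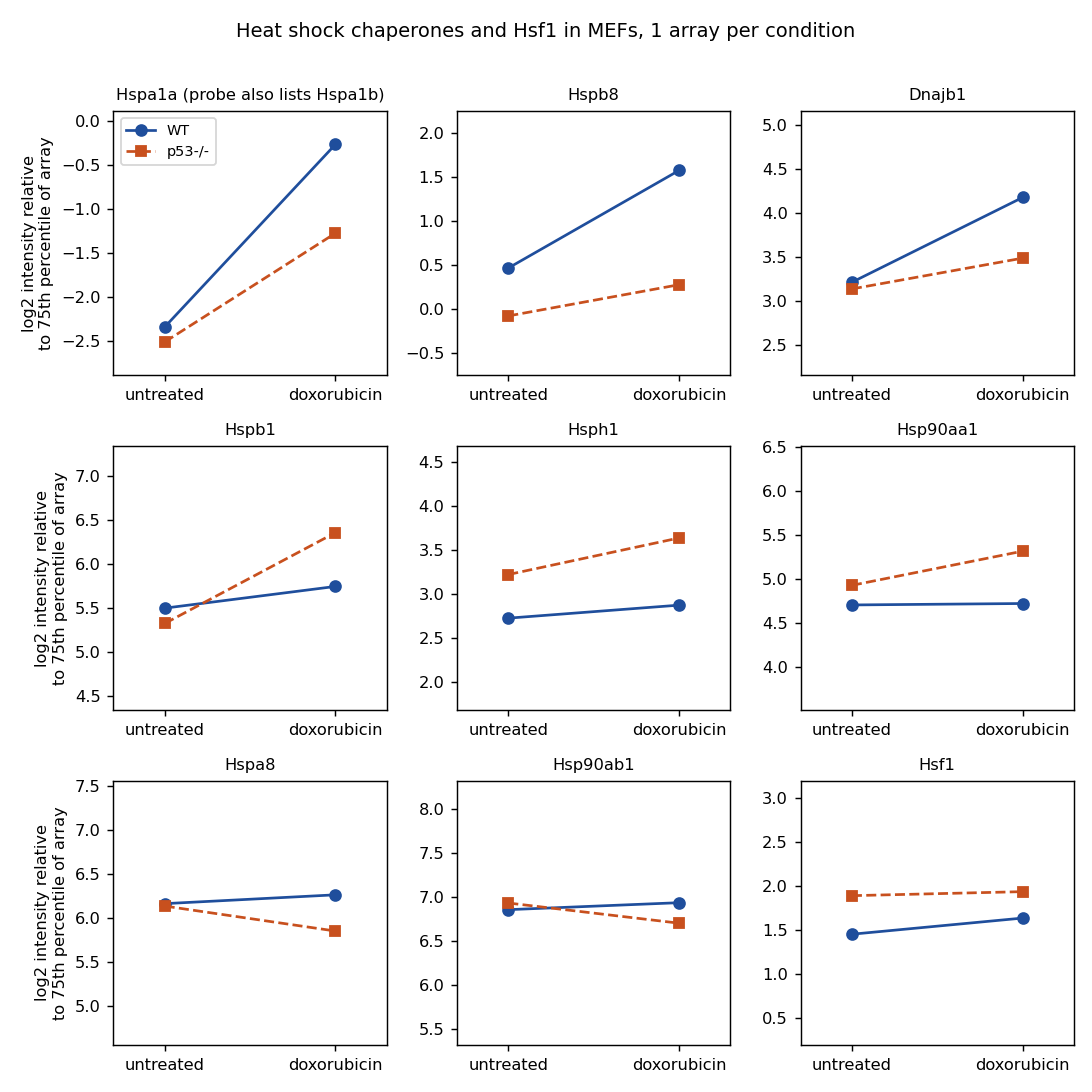
Log2 intensity of each gene after scaling to the 75th percentile (y axis, log2 units, the same span in each panel but a different center) in untreated and doxorubicin-treated MEFs; circles and solid lines are WT, squares and dashed lines p53-/-, 1 array per point and no error bars. Lines climb most for Hspa1a (by 2.08 in WT and 1.24 in p53-/- MEFs), those of WT are steeper for Hspb8 and Dnajb1, and that of p53-/- is steeper for Hspb1.

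Among the HSP70 genes, Hspa1a, the stress-inducible HSP70, had the widest range of the group. Its probe had a signal of 409 without and 1512 with doxorubicin in WT MEFs, and of 330 without and 1000 with doxorubicin in p53-/- MEFs. Both doxorubicin arrays lay above both untreated arrays. The ratio was 2.08 in WT MEFs, 4.22-fold, and 498 of the 17572 genes measured there had a higher one. In p53-/- MEFs the ratio was 1.24, 2.36-fold, and 1058 of 17006 genes had a higher one. The untreated arrays differed by -0.17 (p53-/- over WT), the doxorubicin arrays by -1.01, 2.01-fold lower in p53-/- MEFs, and the response was 0.84 log2 units larger in WT MEFs. This level is low on the array. The brightest negative control spot on the untreated p53-/- array had a signal of 250.1, not far under the 330 of Hspa1a there, whereas on the other arrays the brightest was between 77.5 and 120. Normexp background correction gave ratios of 1.87 and 1.04, and array-median scaling 1.80 and 0.94, below the 2-fold line in p53-/- MEFs. The probe (chromosome 17, 35107117 to 35107176, mm9, minus strand) is listed under the transcripts of both Hspa1a and Hspa1b, so these values are those of the pair and the share of each gene is uncertain.

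Hspa8, which encodes the constitutive HSC70, had signals of 148934, 140013, 132535 and 140120 on the 4 arrays. These signals before scaling were close together. After scaling, the ratio of p53-/- over WT MEFs was -0.03 without doxorubicin and -0.41 with it. The ratio upon doxorubicin was 0.10 in WT and -0.28 in p53-/- MEFs, and 2 further probes gave 0.11 and 0.07 in WT and -0.25 and -0.52 in p53-/- MEFs. The sign in WT MEFs turned with array-median scaling (-0.18). Hsph1, the HSP110 protein that acts as a nucleotide exchange factor of HSP70, had signals of 13700, 13310, 17518 and 30086. The doxorubicin-treated p53-/- array was the highest and the WT arrays were nearly level. Its ratio was 0.15 in WT and 0.42 in p53-/- MEFs, and its second probe gave 0.10 and 0.47. With array-median scaling the ratio in WT MEFs was -0.13. Hsph1 was higher in p53-/- than in WT MEFs by 0.50 without and 0.76 with doxorubicin, and 2082 of 17344 and 3102 of 17947 genes had larger values.

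Dnajb1, the J domain protein of the HSP40 class that stimulates HSP70, had signals of 19189, 32828, 16511 and 27091. The doxorubicin array was the higher of each genotype. Its ratio was 0.96 in WT MEFs, 1.95-fold and just short of the 2-fold line, and 0.35 in p53-/- MEFs. The genotypes were level without doxorubicin (-0.08, p53-/- over WT) and differed by -0.69 with it. The difference of the ratios was 0.61, and 2867 of 16562 genes had a larger one.

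Of the small heat shock proteins, Hspb8, a partner of BAG3 in chaperone-assisted autophagy, had signals of 2858, 5408, 1777 and 2926. It was lower in p53-/- MEFs on both arrays. The treated p53-/- array had about the signal of the untreated WT array but a lower scaled log2 value (0.27 against 0.46). Its ratio was 1.11 in WT MEFs, 2.16-fold, and 0.35 in p53-/- MEFs. The ratio of p53-/- over WT MEFs was -0.54 without doxorubicin and -1.30, 2.46-fold lower, with it. Hspb1, a small heat shock protein that also binds actin, followed another course. Its signals were 93790, 97592, 75381 and 198537, so that 3 arrays lay close together and doxorubicin-treated p53-/- MEFs stood above them. The ratio was 0.25 in WT and 1.03, 2.05-fold, in p53-/- MEFs, and the difference of -0.79 was the lowest among the 9 genes. With array-median scaling the ratio was 0.74 in p53-/- MEFs, below the 2-fold line, and -0.03 in WT MEFs.

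Both HSP90 genes stayed within 2-fold of their untreated level. Hsp90aa1, the inducible HSP90, had signals of 54146, 48022, 57312 and 96576, highest in doxorubicin-treated p53-/- MEFs. The ratio was 0.02 in WT and 0.39 in p53-/- MEFs, and under the array-median, quantile and normexp alternatives that of WT MEFs turned to -0.26, -0.0036 and -0.01. Hsp90ab1, the constitutive HSP90, had signals of 239496, 221893, 228894 and 251366, with no array far from the others. Its ratio was 0.08 in WT and -0.23 in p53-/- MEFs, and the latter was 0.02 after quantile normalization. With array-median scaling the ratio in WT MEFs was -0.20. No spot of any member was saturated.

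Hsf1 had signals of 5677, 5654, 6976 and 9269. Both p53-/- arrays were above both WT arrays. Its ratio upon doxorubicin was 0.18 in WT and 0.05 in p53-/- MEFs, and with array-median scaling both turned, to -0.09 and -0.25. It was 0.44 higher in p53-/- than in WT MEFs without doxorubicin and 0.30 higher with it. The mRNA level of Hsf1 does not report its activity, which is regulated on the protein.

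**Figure D3:**
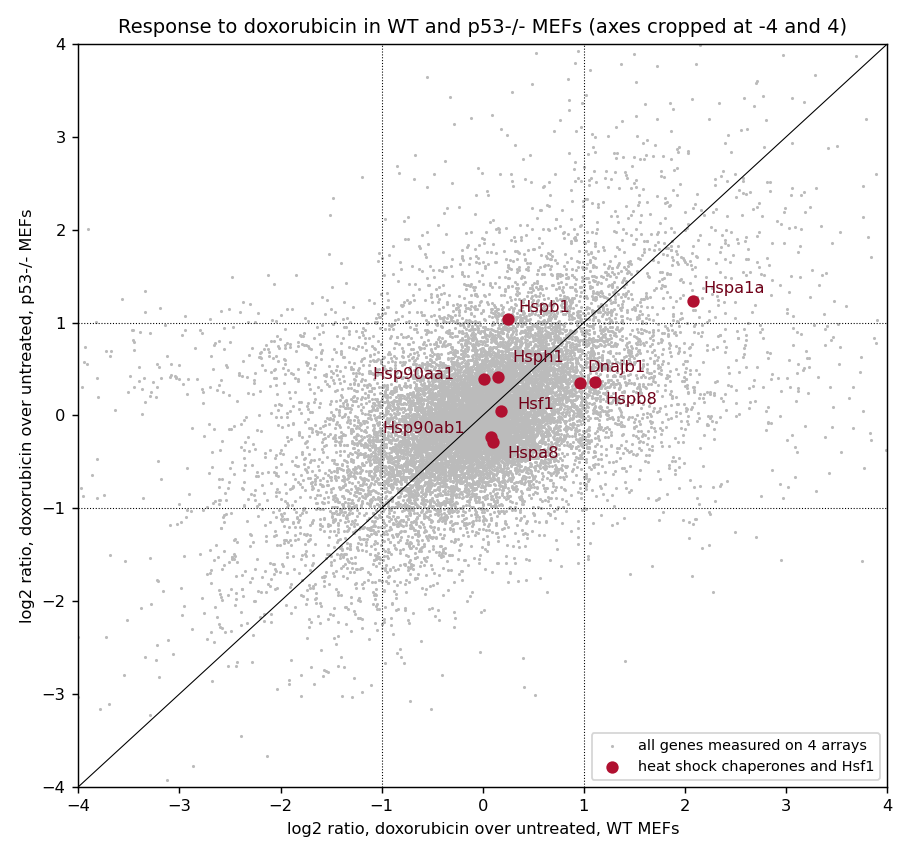
Log2 ratio upon doxorubicin treatment in WT (x axis) against p53-/- MEFs (y axis) for the 16562 genes measured on 4 arrays (gray, 90 of them outside the axes) and for the 9 heat shock genes (red); dotted lines mark 2-fold and the solid line equal responses. Hspa1a lies beyond 2-fold on both axes, Hspb8 beyond it in WT MEFs, Hspb1 beyond it in p53-/- MEFs, and the others lie within the central square.

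The comparison of genotypes gave 0 of the 9 genes at least 2-fold higher or lower in untreated p53-/- relative to WT MEFs, where 2.16% of 17344 genes were higher and 2.62% lower. With doxorubicin, 0 were higher and 2 were lower (Hspa1a and Hspb8), where 11.9% of 17947 genes were higher and 10.3% lower. The difference between the responses (WT minus p53-/-) had a median of 0.01 over all 16562 genes. Genes as a whole thus lay on both sides of 0 in similar numbers, and the 9 genes also lay on both sides. The difference was above 0 for 6 (Hspa1a 0.84, Hspb8 0.75, Dnajb1 0.61, Hspa8 0.38, Hsp90ab1 0.31 and Hsf1 0.14) and below 0 for 3 (Hspb1 -0.79, Hsp90aa1 -0.37 and Hsph1 -0.27). These values exceed the repeat-spot SD, but 0 of the 9 reached 1 or -1, against 8.38% and 9.86% of 16562 genes. The sign of each of these differences was the same under array-median, quantile and normexp processing, but that of Hsp90ab1 was 0.076 after quantile normalization, within the repeat-spot SD. Without replicate arrays the differences were not tested.

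**Figure D4:**
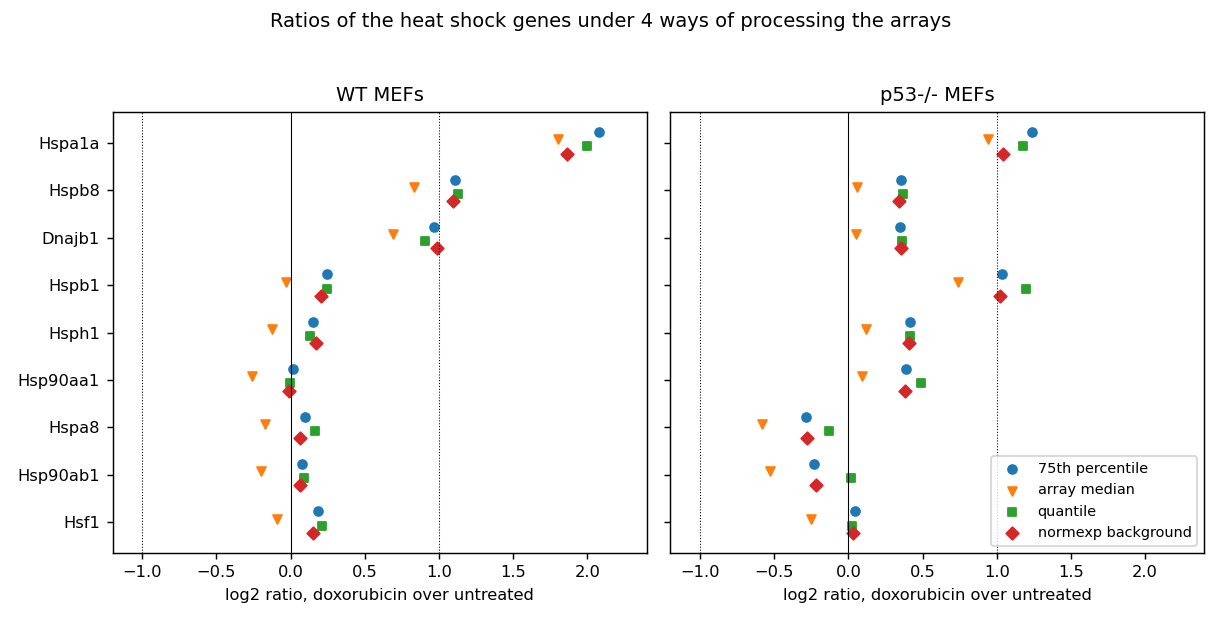
Log2 ratio upon doxorubicin treatment (x axis) of the 9 heat shock genes (y axis) in WT (left) and p53-/- MEFs (right) under 4 ways of processing: 75th percentile, array median, quantile normalization and normexp background correction; dotted lines mark 2-fold. The array-median values lie to the left by 0.28 in WT and 0.30 in p53-/- MEFs, which carries Hspb8, Hspb1 and, in p53-/- MEFs, Hspa1a across the 2-fold line, while Hspa1a stays the rightmost gene in WT MEFs.

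The wider chaperone network, 98 further genes in 8 groups, was measured in the same way. In WT MEFs 7 of 88 measured genes were at least 2-fold higher (7.95%) and 6 lower (6.82%), and in p53-/- MEFs 4 of 89 were higher and 4 lower (4.49% each), below the shares over all genes given above. With array-median scaling these counts were 5 higher and 9 lower in WT MEFs and 0 higher and 8 lower in p53-/- MEFs, so that Hspa2, Dnajc9, Grpel1 and Dnajb9, the genes higher in p53-/- MEFs, all fell short of 2-fold there, and Dnajc9 and Dnajb9 also did so in WT MEFs. The median ratio of these genes was 0.01 in WT and -0.01 in p53-/- MEFs.

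Small heat shock proteins outside the members had 2 of 5 measured genes at least 2-fold higher in WT and 0 of 5 in p53-/- MEFs. Cryab, alpha B-crystallin, had signals of 32484, 87569, 11444 and 14594 and ratios of 1.62 and -0.01. It was lower in p53-/- MEFs on both arrays (log2 ratios over WT of -1.36 and -3.00). Hspb2, which lies next to Cryab in the genome and is expressed with it in muscle, had ratios of 1.55 and -0.35. Hspb6, another small heat shock protein of muscle, had ratios of -0.57 and 0.92, with signals of 3579, 2111, 5062 and 12330. Hspb9 stayed within 2-fold (-0.02 and 0.49).

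The HSP70 family and its exchange factors had 1 gene higher and 1 lower of 12 measured in WT MEFs and 1 higher and 2 lower in p53-/- MEFs. Hspa2, an HSP70 known from the testis, had ratios of 1.29 and 1.22. Hspa12b, a distant family member of endothelial cells, had ratios of -3.38 and -2.07, with signals of 1788, 151, 1496 and 457. Bag5, a BAG domain exchange factor, had ratios of -0.98 and -1.27. Bag3, an HSF1 target and the partner of Hspb8, was not picked by the naming rule and had ratios of -0.12 and 0.02.

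J domain proteins had 2 of 17 genes higher in WT and 1 of 17 in p53-/- MEFs, and 0 lower. Dnajb5 had signals of 5319, 12337, 3387 and 2661 and ratios of 1.40 and -0.71. Dnajc9, a J domain protein that also binds histones, had ratios of 1.19 and 1.13, and Dnajb14, of the endoplasmic reticulum membrane, -0.85 and -0.96. HSP90 co-chaperones had 0 of 17 higher and 2 lower in WT MEFs, and 0 beyond 2-fold in p53-/- MEFs. The lower genes were Fkbp5, an immunophilin of steroid receptor complexes, with ratios of -1.58 and -0.11, and Aarsd1, with -1.16 and -0.60. Ppp5c, a phosphatase on HSP90, had ratios of 0.91 and -0.20. Stip1, the adaptor between HSP70 and HSP90, had 0.24 and 0.62, and Nudc 0.01 and 0.55. Stip1 and Nudc were higher in p53-/- MEFs with doxorubicin by 1.33 and 1.16.

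Among the heat shock factors and their regulator, Hsf2 had ratios of 0.27 and 0.60, and Hsbp1, a protein that binds HSF1 trimers, had 1.42 and 0.54. Hsf4, named here after its values were seen, had signals of 54.4, 371, 82.7 and 99.0 and was not well above background on 1 of the 4 arrays, untreated WT MEFs. Its ratio was -0.10 in p53-/- MEFs, and that of p53-/- over WT MEFs with doxorubicin was -2.32. The TRiC chaperonin and prefoldin, which fold actin and tubulin, had 13 of 13 measured genes within 2-fold in both genotypes. Tcp1, Cct7 and Pfdn2 had WT ratios of -0.57, 0.34 and 0.52 and p53-/- ratios of -0.28, 0.24 and 0.17, and the subunits Pfdn4 and Vbp1 had p53-/- ratios of 0.75 and 0.71. Of 9 mitochondrial chaperones, 1 was lower in WT (Lonp1, the matrix protease, -1.18 and -0.32) and 1 higher in p53-/- MEFs (Grpel1, the exchange factor of mitochondrial HSP70, 0.99 and 1.01). The second, dimmer Grpel1 probe gave 3.15 and 0.87. Hspa9, the mitochondrial HSP70, had -0.81 and -0.78, and Grpel2 0.08 and 0.37. Of 13 chaperones of the endoplasmic reticulum, 1 was higher and 2 lower in each genotype, and their median ratio was -0.27 in WT and -0.60 in p53-/- MEFs. Dnajb9 was the higher one (1.27 and 1.21). Pdia6 (-1.05 and -0.60) and Dnajc3 (-1.08 and -0.66) were lower in WT MEFs, and Hsp90b1 (-0.72 and -1.05) and Pdia4 (-0.27 and -1.16) in p53-/- MEFs. Array-median scaling turned the sign of the smaller ratios of Hsf2, Stip1, Nudc, Grpel2, Pfdn4 and Vbp1 in WT and of Cct7 and Pfdn2 in p53-/- MEFs, and normexp that of Hspb9 in WT MEFs.

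**Figure D5:**
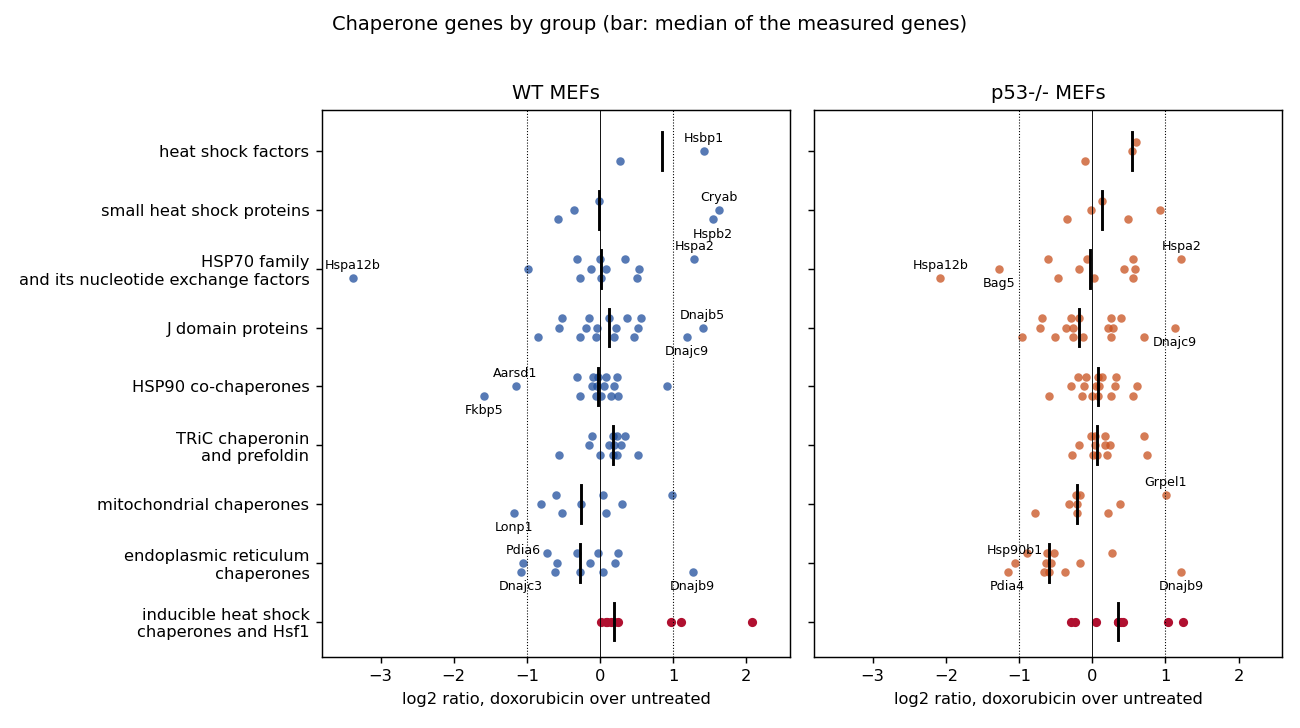
Log2 ratio upon doxorubicin treatment (x axis) of measured chaperone genes by group (rows) in WT (blue) and p53-/- MEFs (orange), with the 9 heat shock genes in red; 1 point per gene, black bars are medians, dotted lines mark 2-fold and genes beyond it are named. Cryab, Hspb2 and Dnajb5 lie beyond 2-fold in WT and within it in p53-/- MEFs, and all points of the TRiC and prefoldin row lie between the dotted lines.

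The genes whose pattern was most like that of Hspa1a, by the Euclidean distance between log2 values centered on each gene's mean over the 4 arrays, were Cdhr1, Als2cl, Krt7, Mbp and Pkp1. Their distances were 0.176, 0.180, 0.193, 0.197 and 0.205 among 16561 genes compared. Als2cl, the brightest, had signals of 1880, 6353, 1366 and 4813. Krt7, a keratin, had signals of 317, 1260, 281 and 937. In untreated p53-/- MEFs, Cdhr1 and Pkp1 had signals of 119 and 102, below the brightest negative control spot of that array. Of the other heat shock genes, Hspb8 (rank 813, distance 0.983) and Dnajb1 (rank 923, distance 1.03) were the nearest to Hspa1a, and Hsph1 the farthest (rank 8621).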

How the data were processed

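RNA from 4 conditions was measured on 1 one-color Agilent mouse array each, on 1 slide. Per the labels, the authors used 200 ng of total RNA for Cy3 labeling, and Agilent Feature Extraction 10.7.3.1 read the spots. The deposited intensity of a spot is background-subtracted, corrected for spatial trends within the array and not normalized between arrays, with substitute values for dim spots. The deposited flags are 0 or 1. The deposited table of intensities for the whole series was equal to the scanner values (largest relative difference 0). Fold changes made by the authors were not used.

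Leaving out controls, an array had 43020 spots of 39429 probes, and 56.9% to 62.9% of the probes were well above background. Outlier spots were left out, log2 intensities of a probe were averaged, and the 75th percentile of the array was subtracted. Members were found by the gene name in the files, and their coordinates are those of the files (mm9). Other probes were named by RefSeq transcript through a GRCm38.p6 table (26055 of 39429 probes), or else by the name in the files. Where a gene had several probes, the one with the highest mean stood for it, and a ratio was taken only if both of its arrays had the probe well above background. With 1 array per condition no test was made, and the number of arrays limits the precision.

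Named genes were the members, up to 3 genes per chaperone group with the largest ratios in each genotype among those measured on all 4 arrays, the 5 genes nearest to the member with the widest range, and Trp53, Cdkn1a and Mdm2. Members and lists were chosen with earlier results of these data known. Alternatives were array-median and quantile scaling, normexp (limma 3.58.1, R 4.3.3, offset 50), no filter on dim probes, a filter on all 4 arrays, the mean of a gene's probes, outlier spots kept, the deposited table, and thresholds of 1.5-fold and 3-fold. The steps were tested on simulated arrays that had spot noise and changes beyond the 2-fold line. Such arrays lack the spread between cultures, so the test does not cover it. Python 3.11.15, numpy 2.4.6, pandas 2.3.3 and matplotlib 3.10.9 were used.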

Additional observations from a re-analysis of the deposited data

Results flagged for a closer look

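Responses that went opposite ways in WT and p53-/- MEFs by more than the repeat-spot SD of a ratio (0.08) are listed here for the heat shock genes and for the chaperones picked by the naming rule, and with 1 array per condition these differences were not tested. For Dnajb5, a J domain protein, the log2 ratio was 1.40 in WT against -0.71 in p53-/- MEFs, a difference of 2.12. Hspb2 had ratios of 1.55 and -0.35, a difference of 1.90. Hspb6 went the other way, with -0.57 and 0.92 and a difference of -1.49. Ppp5c had ratios of 0.91 and -0.20, a difference of 1.11. These 4 genes kept opposite signs under array-median, quantile and normexp processing. Hspa8 had ratios of 0.10 and -0.28, a difference of 0.38, and with array-median scaling both of its ratios were below 0 (-0.18 and -0.58). Of the 98 further chaperones, 88 were measured on all 4 arrays. Among these 88, 18 had opposite ratios by this measure, and the 14 that the naming rule did not pick are not listed. The share of all genes with opposite ratios was not counted, so these numbers do not show a trait particular to chaperones. The naming rule picks the largest ratios, so large differences are favored among the chaperones listed.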

How the results depend on the processing

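With 1 array per condition no array could be left out, no slide block was needed on 1 slide, and no alternative changes that limit. No paired analysis was possible because the conditions have no replicates. Counts of heat shock genes beyond 2-fold were 2 higher in WT and 2 higher in p53-/- MEFs upon doxorubicin. They were 1 and 0 with array-median scaling, and 1 and 0 at 3-fold. For doxorubicin-treated p53-/- over WT MEFs, 2 genes were lower. This count was 1 with normexp (Hspa1a at -0.94) and 0 at 3-fold, and at 1.5-fold 3 genes were higher (Hsp90aa1, Hspb1 and Hsph1) in place of 0. For the difference of the responses, 3 genes lay above and 1 below the 1.5-fold line in place of 0 and 0. Dnajb1 also passed 1.5-fold, higher in WT MEFs upon doxorubicin and lower in treated p53-/- over WT MEFs (3 genes in each in place of 2), and the other alternatives left these counts as they were. Shares of all genes were counted at 2-fold only. The counts at 1.5-fold and 3-fold thus have no background to be set against and show nothing particular to these genes.

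Of 45 values of single genes, 18 moved by more than the repeat-spot SD with array-median scaling, 16 with quantile normalization, 2 with normexp and 0 with the others. Signs changed for 7, 4 and 1 of the 45, and for 1 with the mean of a gene's probes, and 0 of the values beyond 2-fold changed sign. Array-median scaling shifts all genes of a comparison alike, so its 18 were the ratios upon doxorubicin of all heat shock genes in both genotypes. Over all genes, array-median scaling changed the number at least 2-fold lower from 1833 to 2802 in WT MEFs, and in p53-/- MEFs those lower from 1173 to 2107 and those higher from 1570 to 957. Normexp changed the number higher in untreated p53-/- over WT MEFs from 374 to 219. Without a filter on dim probes the numbers higher went from 1936 to 4935 in WT, 1570 to 4740 in p53-/-, 374 to 1449 between untreated and 2137 to 3868 between treated MEFs. Those lower went from 1833 to 2883, 1173 to 2369, 454 to 1682 and 1850 to 3639 in the same order, and differences of the responses of 1 or more from 1388 to 3651 and of -1 or less from 1633 to 4079.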
